A study of Mus musculus with 6 samples.

Results

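Double-positive islet cells, which carry both a beta-cell reporter and a delta-cell lineage label, were compared with beta cells sorted from the same islets. The comparison is between 4 of the 6 libraries of the series, 2 of double-positive cells (called transdifferentiated in the labels) and 2 of beta cells. The delta libraries also entered the scaling and the fit, and so bear on the p-values. The 4 compared were chosen by their labels and not by any measured value. The genes compared are those at 1 RPKM (read counts scaled to gene length and to library size) or more in at least 2 of these 4 libraries, which left 12433 of 46932 gene symbols. All adult mice carried a nuclear mCherry under an Ins1 promoter (mIns1-H2b-mCherry), which marks insulin-producing cells, together with Sst-cre and a floxed YFP allele, which label cells that have used the somatostatin promoter and their descendants. Beta cells were sorted as mCherry-positive, delta cells as YFP-positive and the third population as positive for both. Each group has 1 library from a pool of males and 1 from a pool of females, with islets of 10 to 12 animals in a pool, and the islets were kept overnight in 5.5 mM glucose before sorting. One sentence of the series text speaks of bitransgenic females and another names alpha cells as the origin of the cells, whereas the title, the sample labels and the Sst promoter of the Cre point to delta cells. The labels were followed, and they do not say whether beta or delta cells were also gated against the other colour. The beta and delta libraries had been deposited before in another series, and the labels do not say whether all were prepared and sequenced together, so a batch that coincides with the double-positive group cannot be told apart from it. The libraries were paired by the sex of the pool, and title tokens that differ between the groups are not explained. Nothing in the labels gives cultures beyond the pools, so p-values measure the spread between single libraries of pools.

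Beta cells make and store insulin, and their mature state is marked by the transcription factor Mafa and the peptide urocortin 3 (Ucn3). Delta cells make somatostatin (Sst), which restrains neighbouring hormone cells, and depend on the homeobox factor Hhex. Because Cre leaves a permanent mark, a cell with both colours has used the somatostatin promoter at some time, and it held the protein of the Ins1 reporter when sorted. The colour does not show whether the Ins1 promoter was active at that moment. The double-positive sort therefore selected in part for past or present somatostatin and insulin transcription, and the part of the sort in the Sst difference was not tested.

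The 4 marker genes separate the groups, and the stretches upstream of Sst and Ucn3 are shown because these genes stand at the delta-cell and beta-cell ends of the comparison. RefSeq (GRCm38.p6) gives a start site for 3 of the 4, Sst, Hhex and Ucn3, and Mafa has no entry. The Sst stretch lies on the minus strand at chr16:23890874-23890903. Capitals mark a cAMP response element, TGACGTCA, from 48 to 41 bases before the RefSeq start site, the element that the factor Creb binds in this gene. Only 30 bases are shown because GENCODE M21 starts the gene farther upstream, at 23890958. For Ucn3 the 250 bases before the start site are shown, on the minus strand at chr13:3945350-3945599, where capitals mark the 2 matches to TAAT on either strand, the core that homeodomain factors such as Pdx1 and Nkx6-1 recognise.
Sst: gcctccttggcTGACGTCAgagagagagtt
Ucn3: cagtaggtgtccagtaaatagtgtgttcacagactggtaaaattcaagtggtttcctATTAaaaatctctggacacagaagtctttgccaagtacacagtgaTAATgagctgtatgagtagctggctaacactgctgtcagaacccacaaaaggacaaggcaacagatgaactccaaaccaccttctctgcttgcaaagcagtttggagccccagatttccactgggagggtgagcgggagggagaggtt
The letters TGACGTCA occur in 1.55% and TAAT in 54.9% of the 32851 promoter windows of 250 bases. The Sst window also holds TAAT once, from 95 to 92 bases before the start, and the Maf half-site TGCTGA (16.1% of windows) once, and the Ucn3 window holds neither TGACGTCA nor TGCTGA. The Hhex window holds none of these, and none of the 3 windows holds TATAAA (12.4% of windows). Both strands were searched. A match of letters is a description and not a bound site.

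The 4 libraries differ in depth and in composition. The male and female double-positive libraries rest on 12.5 and 10.9 M reads and the beta libraries on 21.6 and 20.5 M, so low values are less certain in double-positive cells, where 3 reads on a gene of 1 kilobase are worth 0.239 and 0.275 RPKM. Ins1 and Ins2 together held 52.5% and 45.2% of the summed RPKM of the beta libraries against 22.4% and 23.8% in the double-positive ones. Values were therefore divided by median-of-ratios factors, 0.792 and 0.878 for the beta and 1.10 and 1.08 for the double-positive libraries, and are called scaled RPKM below. Fold changes are double-positive minus beta on the log2(scaled RPKM + 1) scale, on which low genes change by less than their true ratio, and levels are given for the male and then the female library. As deposited, without scaling, the median log2 fold change of all genes was 0.31 in place of -0.017, and with scaling to the summed RPKM without 7 hormone genes it was 0.25.

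Double-positive and beta cells differed widely, in both directions, and the balance of the directions varied with the filter and the scaling. Of 12433 genes, 7199 (57.9%) passed an adjusted p of 0.05 in limma with the pool as a block. In double-positive cells 3649 were higher (29.3%) and 3550 lower (28.6%). Each count of list members below is to be read against these shares. The larger differences were mostly upward, with 1263 genes higher and 416 lower by at least 2-fold, and 37 higher and 9 lower by at least 8-fold. The filter bears on this, because 1330 genes reached 1 RPKM only in double-positive and 80 only in beta libraries, and a gene that enters through 1 group alone is likely to be high there. Among the 11023 genes that reached it in both groups, 2528 were higher and 3471 lower, and by at least 2-fold 621 were higher and 374 lower. With RPKM as deposited the calls were 5495 higher and 1289 lower, so that 81.0% in place of 50.7% of calls were higher, and with the scaling without hormone genes they were 4964 and 1546 (76.3% higher). Small changes of either sign are therefore relative to the median gene. The male and female pools gave like fold changes, with Pearson's r of 0.88 across genes, which are not independent replicates. The 2 groups did not overlap for 77.5% of genes. Leaving out the male double-positive library left 2299 higher and 1393 lower calls, and leaving out the female one 2592 and 2143.

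**Figure D1:**
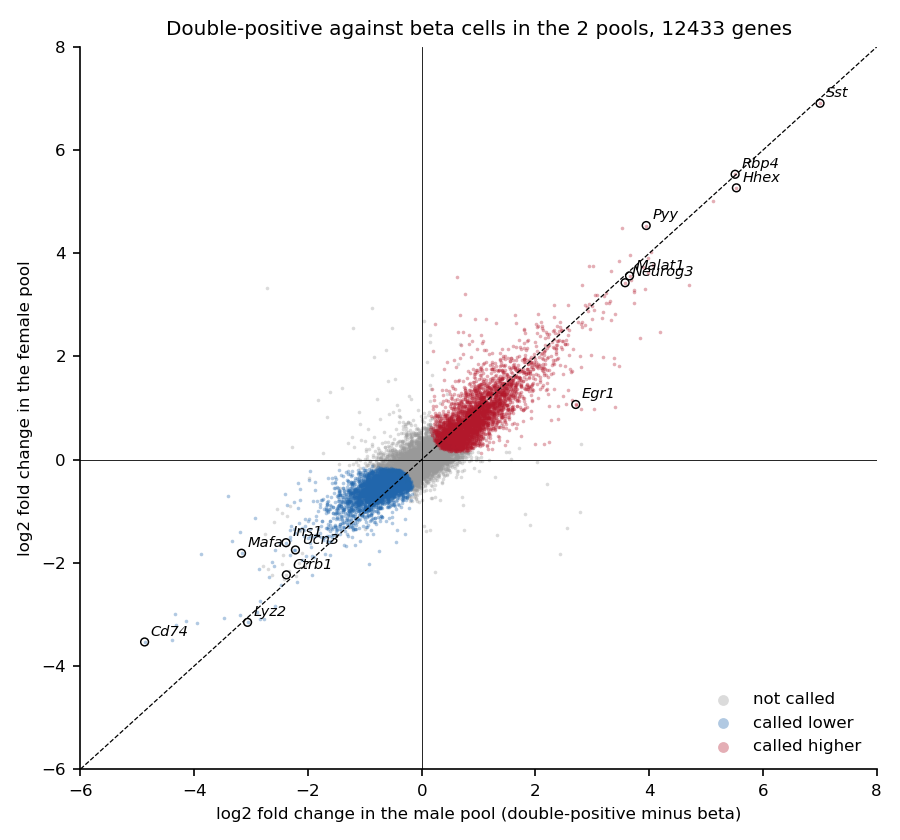
Log2 fold change of double-positive minus beta cells in the male pool (x axis) against the female pool (y axis) for each of 12433 genes, coloured by call, with the line of equality dashed. Sst, Rbp4 and Hhex lie farthest up, close to the line, and Cd74 lies farthest down, at -4.87 in the male and -3.54 in the female pool.

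Delta-cell genes were the most raised genes in double-positive cells. Sst was at 11652 and 12006 scaled RPKM in the double-positive, 89.8 and 98.9 in the beta and 44687 and 53783 in the delta libraries. The groups are far apart, and the log2 fold change over beta cells was 6.96 (SE 0.18, adjusted p = 1.91e-05). Sst lies at chromosome 16, 23889573 to 23890958 (GRCm38). Hhex (chromosome 19, 37434810 to 37440731) was at 62.3 and 52.1 in double-positive and 0.366 and 0.377 in beta libraries, which gave a log2 difference of 5.40 (SE 0.12, adjusted p = 1.23e-05). Hhex was under 1 RPKM in both beta libraries and passed the filter only through the double-positive ones, which fixes its direction. At such low beta levels the + 1 understates the size of its change. Rbp4, the plasma retinol carrier, was at 516 and 536 against 10.3 and 10.6, which gave a log2 difference of 5.52 (SE 0.12, adjusted p = 1.23e-05). Arg1, the cytosolic arginase, was higher by 5.07, Cd24a, a small surface glycoprotein, by 3.94 and Ghsr, the ghrelin receptor, by 3.92. Gap43, a growth cone protein, was higher by 3.81, Efnb3, an ephrin ligand, by 3.65, and Ptprz1, a receptor phosphatase, by 3.23. Like Hhex, the genes Ghsr, Gap43, Efnb3 and Ptprz1 reached 1 RPKM only in double-positive libraries, which fixes their direction. Sstr3, a somatostatin receptor of the same list, went the other way, at -0.78 (SE 0.10, adjusted p = 0.00148).

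Of 20 delta identity genes 15 were tested, and 14 were higher and 1 lower, with a median of 3.65 against -0.017 over all genes tested, of which 29.3% were higher and 28.6% lower. The other 5 (Edn3, Gabrg1, Nrn1, Pkib and Kcnj2) did not reach 1 RPKM in 2 of the 4 libraries. The genes of this list were chosen with earlier results of these data known, so its count is a description and not independent evidence. In addition, 7 of the 15 reached 1 RPKM only in double-positive libraries, which fixes their direction, and of the other 8, 7 were higher and 1 lower. For 12 members higher by at least 2-fold, the double-positive mean lay between 24.0% (Sst) and 36.8% (Ffar4, a fatty acid receptor) of the delta mean, with a median of 33.5%. Genes whose levels in delta cells ranged from 4.38 ± 1.78 (Dpp10) to 49235 ± 6432 scaled RPKM (mean ± SD, n = 2) are in this band, which holds for members chosen by their fold change. The other 3 tested members lay above it, Casr, the calcium-sensing receptor, at 63.1%, Sstr3 at 84.8% and the phosphodiesterase gene Pde1c at 90.4% of the delta mean. Casr was called higher than in beta cells at 0.60 (adjusted p = 0.0284), but not without the pool block (0.0607). Its call was also lost with no filter on low values (0.125) and with only the 4 libraries and no block (0.0886). Its log2 fold change was 0.44 without double-positive replicate 1. In bulk samples, fewer cells of a type and less RNA per cell cannot be told apart. In the pools taken singly, Rbp4 was at 32.5% and 29.8% and Hhex at 40.3% and 32.4% of the delta library. Outside this list, Neurog3, the endocrine progenitor factor, was at 15.5 and 12.1 in double-positive, 0.38 and 0.217 in beta and 39 and 40.6 in delta libraries, so its mean was 34.6% of the delta mean.

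**Figure D2:**
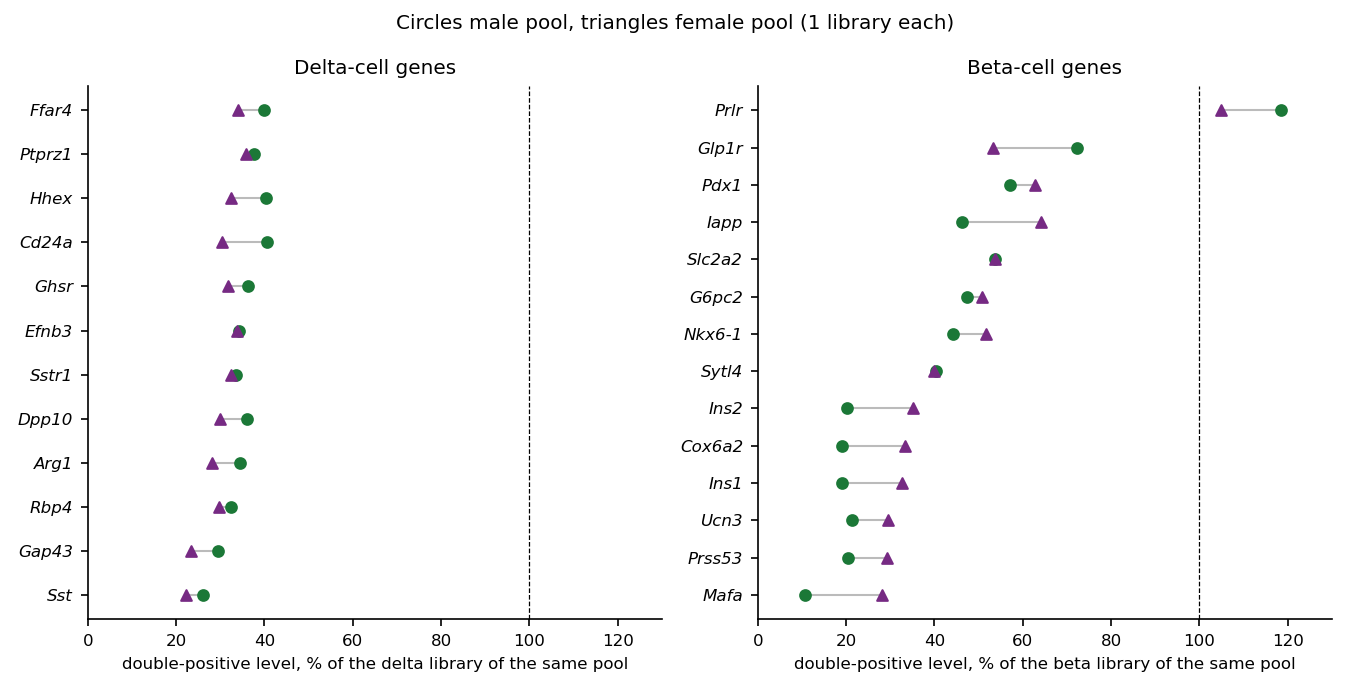
Level in double-positive cells as a percentage of the delta library (left, 12 delta-cell genes) or the beta library (right, 14 beta-cell genes) of the same pool, with circles for the male and triangles for the female pool. The delta-cell genes sit in a band around 33.5% of the delta level, while the beta-cell genes spread from Mafa at the bottom to Prlr above 100%.

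Hormones of other islet cells were higher in double-positive than in beta cells. Pyy, peptide YY, was at 5466 and 6065 scaled RPKM against 353 and 260.0, which gave a log2 difference of 4.24 (SE 0.22, adjusted p = 0.000128), and Ppy, pancreatic polypeptide, was at 5310.4 and 5114 against 659 and 376, which gave a log2 difference of 3.39 (SE 0.24, adjusted p = 0.000327). Gcg, glucagon, was at 1470.2 and 2198 against 297 and 481, which gave a log2 difference of 2.25 (SE 0.19, adjusted p = 0.000486). The delta libraries held 13084 and 14573 of Gcg, of which the double-positive mean was 13.3%, a lower fraction than for Pyy (30.9%) or Ppy (35.3%). Of 19 alpha and PP cell markers 13 were tested, and 9 were higher and 2 lower (1 lower without either double-positive library, median 0.91). Etv1, a transcription factor, was higher by 2.12, Gria3, a glutamate receptor subunit, by 1.73, and the homeobox factor Irx2 by 1.02. Irx1 and Pou3f4, homeobox factors of the list, did not reach the filter. Of the 13 tested, 1 reached 1 RPKM only in double-positive libraries. Of the other 12, 8 were higher and 2 lower, against 29.3% and 28.6% of all genes tested. The summed level of the list was 12957 and 14145 in the double-positive and 2009 and 1713 in the beta libraries, 1 member was at 0 in each group, and whether other sorted cells carry these transcripts was not tested.

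Insulin RNA was lower in double-positive cells. Ins1, the gene whose promoter drives the reporter, was at 15772 and 18861 scaled RPKM in the double-positive and 82450.0 and 57590.1 in the beta libraries, with no overlap, and its log2 fold change was -1.998 (SE 0.28, adjusted p = 0.00188). Ins2 was at 61909.6 and 67789 against 307050.0 and 192906, which gave a log2 difference of -1.91 (SE 0.33, adjusted p = 0.00388). Ins1 and Ins2 share much of their sequence, and how reads were divided between them is uncertain. Their means were 24.7% and 25.9% of the beta means, and the male beta library was the higher one for both. Without double-positive replicate 1 or 2 the adjusted p of Ins2 was 0.128 and 0.0781. It was 0.0649 with only the 4 libraries in the fit and 0.652 with no filter on low values, where that of Ins1 was 0.225. Iapp, amylin, which is stored with insulin, was at 26707 and 27330.5 against 57892 and 42612, a smaller difference of -0.88 (SE 0.28, adjusted p = 0.0362). Its call was lost with only the 4 libraries in the fit (adjusted p = 0.209) and with no filter on low values (0.843). It was also lost with 0.1 in place of 1 added before the logarithm (0.059) and with the exon length trend removed (0.0553). The call of Iapp was lost without either double-positive library too, where its log2 fold changes were -0.76 and -1.01.

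Of 18 genes for beta hormones and granule proteins, all tested, 12 were lower and 2 higher (median -0.48). Over all genes tested 28.6% were lower and 29.3% higher. G6pc2, the islet glucose-6-phosphatase subunit, was at 554 and 641 against 1171 and 1263, which gave a log2 difference of -1.03 (SE 0.11, adjusted p = 0.000994). Ero1lb, an oxidase for disulfide bonds of proinsulin, was lower, at -0.99 on the same scale. Chromogranin A (Chga) was at -0.83 and Chgb, chromogranin B, went the other way at 0.49. Both lost their calls without double-positive replicate 1 (adjusted p = 0.304 and 0.492) or 2 (0.17 and 0.272), and Chgb also without beta replicate 1 (0.0515). The count of lower members was 3 without double-positive replicate 1, 3 without replicate 2, 6 with only the 4 libraries, and 6 with RPKM as deposited. Replicate 1 is the male and replicate 2 the female pool.

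Genes of beta-cell maturity were unevenly reduced. Ucn3 (chromosome 13, 3940688 to 3945349) was at 97.3 and 145 scaled RPKM in double-positive, 457 and 492 in beta and 2.18 and 2.22 in delta libraries, a log2 difference from beta of -1.99 (SE 0.15, adjusted p = 0.000375). Its mean in double-positive cells was 25.6% of the beta mean and far above delta. Cox6a2, a tissue-restricted cytochrome oxidase subunit, was at 18.3 and 31.1 against 95.6 and 92.9 and Prss53, a serine protease, at 24.2 and 38.9 against 118 and 133, with log2 fold changes of -1.94 and -1.99. Ppp1r1a, an inhibitor of protein phosphatase 1, was at -1.76, the cation channel Trpm5 at -1.61, pyruvate carboxylase (Pcx) at -1.41, the granule protein Sytl4 at -1.30 and the fatty acid receptor Ffar1 at -1.01. Slc2a2, the glucose transporter GLUT2, was at 32.1 and 57.1 against 59.7 and 106. The male beta and the female double-positive library lay close together, but within each pool the double-positive value was lower (-0.88 in the male and -0.88 in the female pool, adjusted p = 0.00607). Without the pool block its adjusted p was 0.0624 and as deposited 0.0544.

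Kcnj11 and Prlr, other genes of the list of maturation and glucose sensing, did not pass the test with the scaled values. Kcnj11, the pore subunit of the ATP-sensitive potassium channel, was at -0.21 (SE 0.11, adjusted p = 0.136), and Prlr, the prolactin receptor, at 0.15 (SE 0.13, adjusted p = 0.365), with 23.5 and 28.7 against 19.8 and 27.4 and only 0.752 and 0.738 in delta libraries. Prlr was called higher as deposited (0.52, adjusted p = 0.0286) and lower with the exon length trend removed (-0.30, adjusted p = 0.0378). Abcc8, the regulatory subunit of the potassium channel, was called higher at 0.38 but not without double-positive replicate 1 or 2 (adjusted p = 0.32 and 0.331) or without the block (0.14). The incretin receptor genes were called in opposite directions, Glp1r at -0.68 (SE 0.15, adjusted p = 0.00872) and Gipr at 0.61 (SE 0.18, adjusted p = 0.0263). Both calls were lost without double-positive replicate 2 (adjusted p = 0.0887 and 0.205), that of Glp1r also without the block (0.0993) and as deposited (0.174), and that of Gipr without beta replicate 1 (0.114). Of 24 genes for maturation and glucose sensing 23 were tested, with 12 lower and 3 higher (median -0.68), and the higher ones fell to 1 and 0 without double-positive replicate 1 or 2 and to 1 without beta replicate 1.

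**Figure D3:**
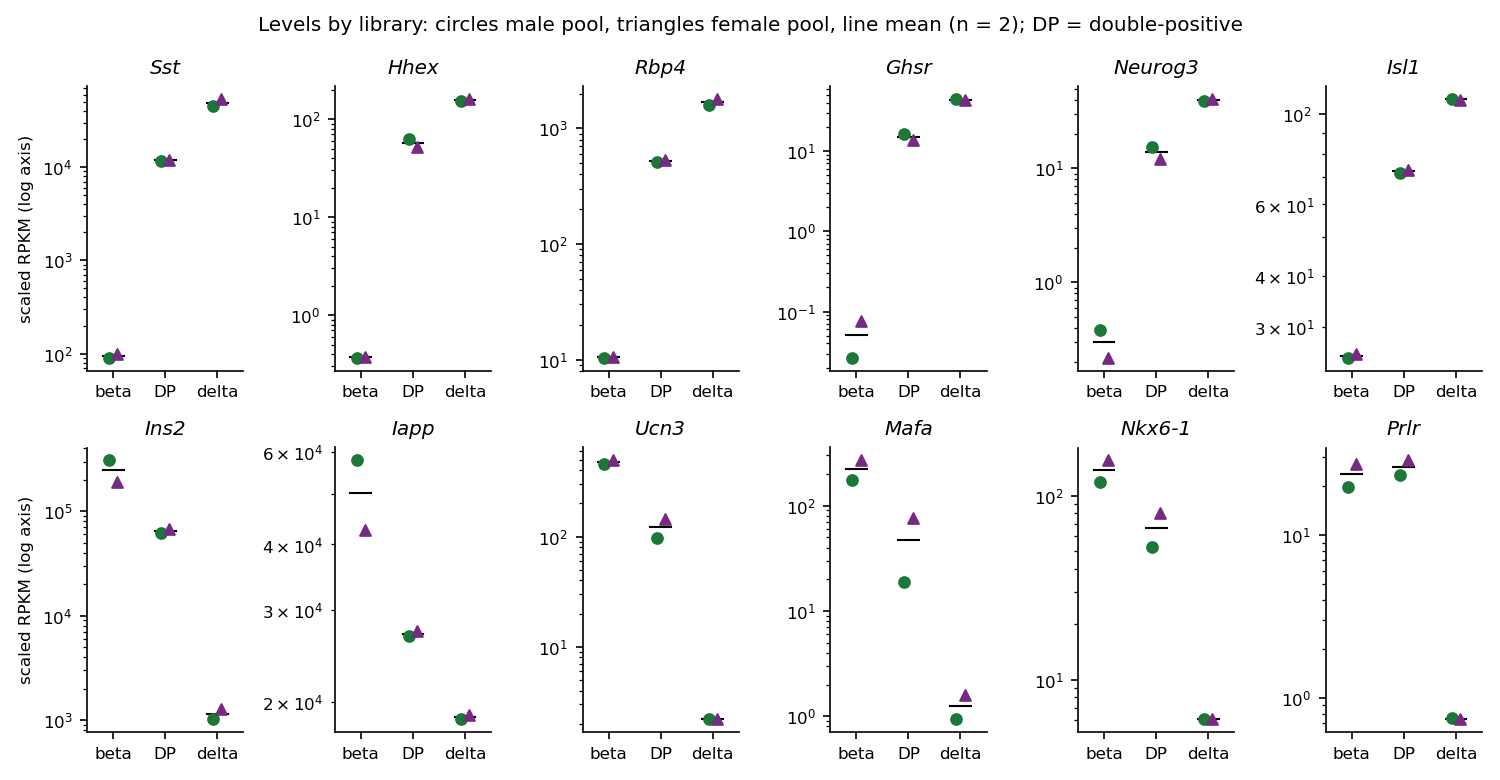
Scaled RPKM (log axis) of 12 genes in each library of beta, double-positive (DP) and delta cells, with circles for the male pool, triangles for the female pool and a line at the mean (n = 2). Sst, Hhex, Rbp4, Ghsr and Neurog3 in double-positive cells lie nearer to delta than to beta cells on this axis, Ucn3 and Nkx6-1 nearer to beta cells, and Prlr overlaps the beta libraries.

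Transcription factors split. Mafa (chromosome 15, 75745490 to 75748228), an activator of the insulin genes, was at 18.7 and 75.7 scaled RPKM in double-positive and 176 and 269 in beta libraries, the farthest down of the factors listed, at a log2 difference of -2.49 (SE 0.35, adjusted p = 0.00194). Its fold changes were -3.17 in the male and -1.82 in the female pool. Nkx6-1, which maintains beta identity, was at 52.6 and 80.2 against 119 and 155 (-1.06, SE 0.15, adjusted p = 0.00219), and Mnx1, a homeobox factor, was at -1.18. Insm1, an endocrine zinc finger factor, was at -0.87. Pdx1 was at 55.7 and 76.1 against 97.4 and 121 (-0.73, SE 0.12, adjusted p = 0.00311), with an adjusted p of 0.0675 without double-positive replicate 1.

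Higher in double-positive cells were Rfx6, a regulatory factor of endocrine cells, at 62.1 and 58.3 against 17.7 and 19.2 (1.65, SE 0.12, adjusted p = 0.000327), and its relative Rfx3 at 1.602. Mlxipl, the glucose-responsive factor ChREBP, was at 65.2 and 79.7 against 25 and 23.1 and 38.8 and 33 in delta libraries, so double-positive cells held the most of it. The LIM factor Isl1 was at 71.7 and 72.9 against 25.2 and 25.8 (1.47, SE 0.10, adjusted p = 0.000287), and the zinc finger factors St18 and Myt1 were at 1.12 and 0.81. Of 20 identity factors 19 were tested, with 10 higher and 7 lower, and 6 and 4 without double-positive replicate 1. In the progenitor and Notch list, with 13 of 20 members tested, 3 were higher and 4 lower. Of the 13, 2 reached 1 RPKM only in double-positive libraries, Neurog3 among them, which fixes their direction. Of the other 11, 1 was higher and 4 lower. Besides Neurog3 at 3.50 (SE 0.13, adjusted p = 5.22e-05), Dlk1, a Notch ligand relative, was at 1.96 and the progenitor factor Sox9 at 1.13, while Hes6 and the cell cycle inhibitor Cdkn1a were lower at -1.18 and -1.14. Notch1, Dll1 and Dll4 did not pass, although Dll4 was called higher as deposited (adjusted p = 0.0133) and with the exon length trend removed (0.0207), where Notch1 was called lower (0.0111). Jag2, called at -0.68, had an adjusted p of 0.0501 as deposited. The median of this list was -0.028, and 0.24 as deposited. Of 22 genes that beta cells normally keep silent 6 reached the filter, with 3 higher and 2 lower (as deposited 0 lower), among them the thioesterase Acot7, higher by 0.90. Of the 6, 1 reached 1 RPKM only in double-positive libraries, and of the other 5, 2 were higher and 2 lower. Ldha, lactate dehydrogenase A, was called lower at -0.72, but not as deposited (adjusted p = 0.219), without the block (0.679), without double-positive replicate 2 (0.245) or without beta replicate 2 (0.151).

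Imprinted genes were mostly higher in double-positive cells. Of 26 imprinted genes 22 were tested, with 16 higher and 3 lower (1 lower without double-positive replicate 1 or beta replicate 1, median 1.14). Of these, 3 reached 1 RPKM only in double-positive libraries, Mest and Peg10 among them, and 1 only in beta libraries, which fixes their direction. Of the other 18, 13 were higher and 2 lower. Over all genes tested, 29.3% were higher and 28.6% lower. Mest was at 22.8 and 23.3 against 0.445 and 0.494 (4.03, SE 0.10, adjusted p = 1.91e-05) and Peg10, a retrotransposon-derived gene, at 13.5 and 17.1 against 0.14 and 0.159 (3.82, SE 0.16, adjusted p = 7.85e-05), 38.3% and 23.2% of the delta means. The long non-coding RNA Meg3 was at 109.8 and 119.8 against 7.63 and 9.79 and at 98.5 and 63.9 in delta libraries. Malat1, a nuclear speckle RNA that is not an imprinted gene, was at 259 and 253 against 19.6 and 20.5 and at 244 and 168 in delta libraries. The log2 fold changes of Meg3 and Malat1 were 3.58 (SE 0.22, adjusted p = 0.000216) and 3.61 (SE 0.16, adjusted p = 9.18e-05). Unlike the delta-cell genes, their means were at 141% and 124% of the delta means. Rian and Mirg, non-coding RNAs of the same imprinted cluster as Meg3, were at 1.503 and 1.18, and the zinc finger genes Zim1 and Peg3 at 3.142 and 1.81. Rasgrf1, a Ras exchange factor, was lower at -0.67, and not called as deposited (adjusted p = 0.088).

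Ion channel genes were more often higher than lower, where over all genes tested 29.3% were higher and 28.6% lower. Of 35 channel genes 28 were tested, with 15 higher and 5 lower (3 lower without either double-positive library, median 0.45). The T-type calcium channel Cacna1h was at 7.8 and 7.87 scaled RPKM against 0.108 and 0.12, which gave a log2 difference of 2.99 (SE 0.11, adjusted p = 5.22e-05). Accessory calcium channel subunits Cacna2d2 and Cacna2d1 were at 2.42 and 1.13, and the sodium channel genes Scn3b, Scn3a and Scn9a at 2.49, 2.30 and 1.84. Hcn2, a pacemaker channel, was lower at -0.96 (SE 0.16, adjusted p = 0.00369). The L-type channel genes Cacna1c and Cacna1d, which carry much of the calcium current of beta cells, were at 0.36 (SE 0.16, adjusted p = 0.0895) and 0.35 (SE 0.18, adjusted p = 0.127) and did not pass. They were called higher as deposited (adjusted p = 0.0165 and 0.0206), with scaling without hormone genes (0.0277 and 0.0339), with a filter of 5 RPKM (0.0397 and 0.0497) and without beta replicate 2 (0.00556 and 0.00333). Of the channel genes tested, 5 reached 1 RPKM only in double-positive libraries, Cacna1h among them, which fixes their direction. Of the other 23, 10 were higher and 5 lower. The median exon length of the tested channel genes was 8060 bases. Among all protein-coding genes with 6986 bases of exon or more, 44.6% were higher and 10.99% lower. With the exon length trend removed the median of the channel list was 0.30.

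Neuronal adhesion and guidance genes were also raised, 13 of the 20 tested (of 33) against 2 lower (5 without beta replicate 1), with a median of 0.93. Among the 14 that reached 1 RPKM in both groups, 7 were higher and 2 lower. The other 6, Ncam2 among them, entered only through double-positive libraries, which fixes their direction. Over all genes tested 29.3% were higher and 28.6% lower. The median exon length of the 20 tested was 9359 bases. Among all protein-coding genes with 6986 bases of exon or more, 44.6% were higher and 10.99% lower. With the exon length trend removed the median of this list was 0.77. Ncam2, an adhesion molecule of the immunoglobulin family, was at 15.5 and 12.1 against 0.0475 and 0.0723 (3.79, SE 0.12, adjusted p = 4.54e-05). Dscam was at 2.49, the guidance ligand Sema3e at 2.32, the netrin receptor Unc5c at 2.04 and Cadm1 at 1.95. Gpm6a, a neuronal membrane glycoprotein outside the list, was at 14.8 and 10.6 against 0.0351 and 0.167 (3.62, SE 0.16, adjusted p = 8.87e-05). It too passed the filter only through double-positive libraries.

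Receptors and the exocytosis machinery showed no common direction. Of 34 receptors 24 were tested, with 8 higher and 11 lower (median -0.35, and 0.013 as deposited, where 10 were higher and 6 lower). Without double-positive replicate 2, 7 were lower. Beside Ghsr and Ffar4, the somatostatin receptor Sstr1 was higher at 2.48 (SE 0.12, adjusted p = 0.000114) and the muscarinic receptor Chrm4 at 1.76. Lower were Vipr1, a receptor of vasoactive intestinal peptide, at -1.46 (SE 0.11, adjusted p = 0.000354), the adrenergic receptor Adra2a at -1.06, Gabbr2, a GABA receptor subunit, at -0.91 and the muscarinic receptor Chrm3 at -0.82. Gabbr1, the partner of Gabbr2, was higher at 1.18. Of the 24 receptors tested, 2 reached 1 RPKM only in double-positive libraries, Ghsr among them, which fixes their direction. Of the other 22, 6 were higher and 11 lower, against 29.3% and 28.6% of all genes tested. Of 27 exocytosis genes 26 were tested, with 8 higher and 9 lower, a median of -0.19 that turned to 0.19 as deposited, and 5 lower there. Without double-positive replicate 1, 4 were higher and 5 lower, and without replicate 2, 4 were higher. The calcium sensor Syt1 was at 1.91 (SE 0.17, adjusted p = 0.000501) and Sytl5 at 1.65, while Syt13 was at -0.90 (SE 0.12, adjusted p = 0.00157) and the granule GTPase Rab3a at -0.92. Snap25, a SNARE protein, was higher at 0.88. Of the 26 exocytosis genes tested, 1 reached 1 RPKM only in double-positive libraries. Of the other 25, 7 were higher and 9 lower, near the shares over all genes tested.

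Genes of energy metabolism were lower in double-positive cells. Of 24 nuclear genes for oxidative phosphorylation 23 were tested, and 22 were lower and 0 higher, with a median of -0.83. For all genes tested the median was -0.017, with 28.6% lower and 29.3% higher. Cox6a1, a cytochrome oxidase subunit, was at 90.3 and 124 scaled RPKM against 278 and 242 (-1.28, SE 0.17, adjusted p = 0.00165) and Cox5a at 24 and 29.1 against 69.7 and 60.4 (-1.26, SE 0.15, adjusted p = 0.00133). Sdhb of succinate dehydrogenase and Cyc1 of complex III were at -1.09 and -1.08. Ndufs1, of complex I, did not pass, at -0.0045 (SE 0.10, adjusted p = 0.973). With RPKM as deposited 13 of these genes were lower and 0 higher, with a median of -0.46 where that of all genes was 0.31, and without double-positive replicate 1 the count was 13. The delta libraries held like levels of Cox6a1 (105 and 121) and Cox5a (22.1 and 28.6) to the double-positive ones.

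In glycolysis and the TCA cycle 23 of 29 genes were lower and 1 higher (median -0.66), with 14 lower without the block, 14 without either double-positive library and 13 as deposited. Pkm, pyruvate kinase, was at 278 and 198 against 600.1 and 397 (-1.05, SE 0.12, adjusted p = 0.0012), fumarase (Fh1) at -1.06 and malate dehydrogenase 2 (Mdh2) at -0.85. Relative to the delta library of the same pool, Pkm was at 109% and 101%, Fh1 at 214% and 242% and Mdh2 at 93.3% and 91.7%. The 1 higher gene, Pdk4, a kinase that inhibits pyruvate dehydrogenase, was at 1.92 and 1.87 against 0.15 and 0.397 and 11.7 and 11.3 in delta libraries (1.19, SE 0.13, adjusted p = 0.00103). Pdk4 reached 1 RPKM only in double-positive libraries, which fixes its direction. Of the other 28 members, 0 were higher and 23 lower, against 29.3% and 28.6% of all genes tested. Of 22 genes for cholesterol and fatty acid synthesis 21 were tested, with 16 lower and 0 higher (median -0.64), among them Mvd at -1.34, Sqle, squalene epoxidase, at -1.11 and the regulator Srebf1 at -0.88. This count was 6 without the block, 10 without double-positive replicate 2 and 6 as deposited, where 1 was higher.

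Targets of the stress factor Atf4, with tRNA synthetases, were lower as well. Of 24 genes 23 were tested, with 21 lower and 2 higher (median -0.84), against 28.6% and 29.3% of all genes tested. Atf5, a related factor, was at 114 and 122 scaled RPKM against 407 and 339.9 (-1.65, SE 0.16, adjusted p = 0.000709), the pseudokinase Trib3 at 44.3 and 30.6 against 135 and 77.7 (-1.45, SE 0.19, adjusted p = 0.00159), and the tryptophan tRNA synthetase Wars at -1.47. Phgdh, of serine synthesis, was at -1.30, and Slc3a2, an amino acid transporter subunit, at -1.05. Against the delta library of the same pool, Atf5 (152% and 128%), Trib3, Wars and Slc3a2 were higher in both pools. Phgdh was at 133% in the male and 97.4% in the female pool. The count was 13 lower without double-positive replicate 1. In the endoplasmic reticulum list, all 22 tested, 12 were lower and 1 higher (median -0.46), which became 5 lower and 5 higher as deposited and 5 lower without either double-positive library. Sdf2l1 was at -1.09 (SE 0.11, adjusted p = 0.000733), Creld2 at -0.78 and Wfs1, the wolframin gene, at -0.78. Hspa5, the main chaperone BiP, did not pass, at -0.21 (SE 0.13, adjusted p = 0.192).

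**Figure D4:**
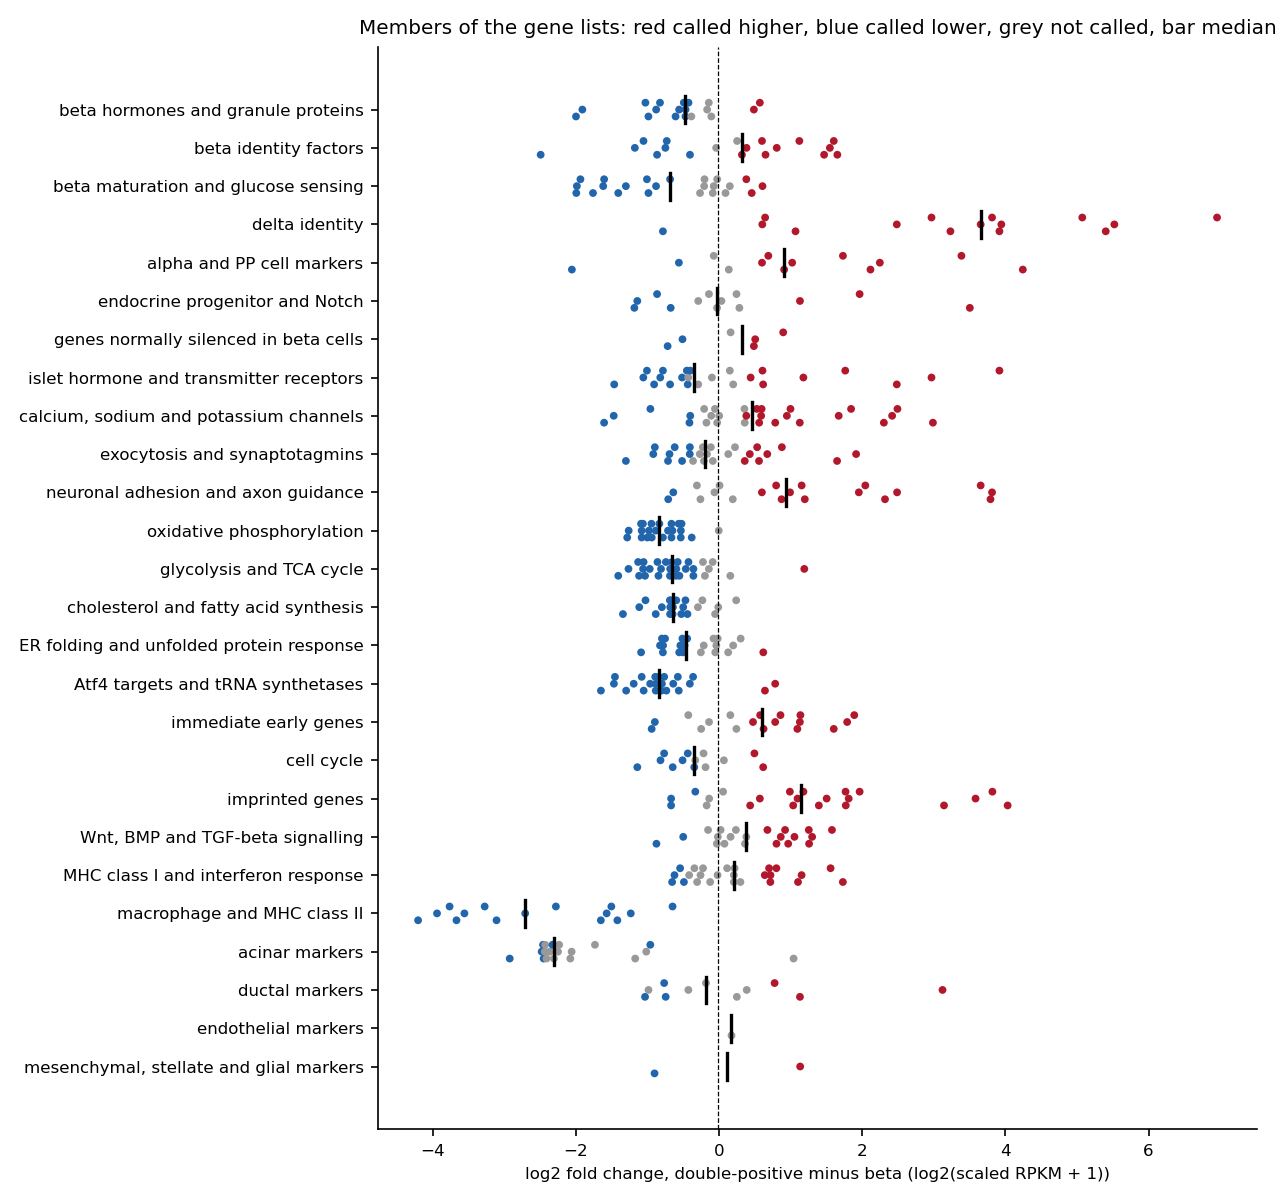
Log2 fold change (double-positive minus beta) of each tested member of the 26 gene lists, red where called higher, blue where called lower and grey where not called, with a bar at each list's median and a dashed line at the median of all genes. Delta identity and imprinted genes lie to the right, and macrophage, acinar, oxidative phosphorylation and Atf4 target genes to the left.

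Immediate early genes, which respond within minutes to stimulation and to tissue dissociation, were mostly higher in double-positive cells. Of 20 genes 18 were tested, with 11 higher and 2 lower (median 0.60), against 29.3% and 28.6% of all genes tested. Egr1 was at 109.8 and 81.7 against 15.9 and 38.4 (1.89, SE 0.44, adjusted p = 0.0111), with unlike fold changes of 2.71 in the male and 1.07 in the female pool, and an adjusted p of 0.0679 with no filter on low values. Nr4a1, a nuclear receptor, was at 37.3 and 26.7 against 7.73 and 9.16 (1.79, SE 0.29, adjusted p = 0.00318), Fosb at 1.602 and Jun at 1.13. Without double-positive replicate 2, 6 were higher, and with no filter on low values 5. Of the 18 tested, 1 reached 1 RPKM only in double-positive libraries, and of the other 17, 10 were higher and 2 lower. The part of cell handling in the difference of these genes was not tested.

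The Id genes, targets of BMP signalling, were raised, with Id2, a dominant-negative helix-loop-helix factor, at 126 and 162 against 45.3 and 49.3 (1.58, SE 0.12, adjusted p = 0.000354) and Id3 and Id4 at 1.26 and 1.30. The receptors Bmpr1a and Acvr2a were at 0.92 and 0.97, and the ligand Wnt4 was lower at -0.87 (SE 0.19, adjusted p = 0.00901). In the whole Wnt, BMP and TGF-beta list, with 21 of 32 tested, 10 were higher and 2 lower (1 without double-positive replicate 1 or beta replicate 1), and 4 of the 21 reached 1 RPKM only in double-positive libraries. Of the other 17 tested members of that list, 7 were higher and 2 lower, against 29.3% and 28.6% of all genes tested. Among interferon-response genes Gbp7 was at 1.73 (SE 0.11, adjusted p = 0.000226), Oas2 at 1.56 (SE 0.14, adjusted p = 0.000551) and Ifit1 at 1.15. The interferon and MHC class I list, all 25 tested, had 9 higher and 4 lower, near the share of 29.3% higher over all genes tested, and its lower members include the class I genes H2-K1 and H2-D1 (-0.62 and -0.49), which were not called as deposited (adjusted p = 0.0997 and 0.427) or without double-positive replicate 1 (0.16 and 0.223) or 2 (0.109 and 0.186). Without beta replicate 2 the list had 8 higher and 9 lower. In the cell cycle list, with 13 of 22 tested, 2 were higher and 7 lower (4 lower without the block, 3 and 4 without double-positive replicate 1 or 2), and Mki67, Top2a, Ccnb1, Ccna2 and Cdk1, which mark dividing cells, did not reach the filter. Ccnd3, a G1 cyclin, was at -0.77 (SE 0.11, adjusted p = 0.00244).

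The genes that fell most in double-positive cells were transcripts known from macrophages and related immune cells. Of the 15 lower genes named by size, 14 were of this kind, and Mafa was the other. Cd74, the invariant chain, was at 2.16 and 6.34 scaled RPKM in double-positive and 91.5 and 84.1 in beta libraries (-4.20, SE 0.31, adjusted p = 0.000346). The class II genes H2-Eb1, H2-Aa and H2-Ab1 were at -3.94, -3.76 and -3.56, and Lyz2, lysozyme, was at 0 and 0.135 against 7.35 and 9.11. The protease Ctss, apolipoprotein Apoe and the complement gene C1qb were at -3.67, -3.64 and -3.27, and Lgals3, Acp5, Tgfbi, Ccl5, Mpeg1 and Tyrobp lay between -3.10 and -2.71. Of 18 macrophage and class II genes 15 were tested and all 15 were lower. Of these, 7 reached 1 RPKM only in beta libraries, which fixes their direction, and the other 8 reached it in both groups. Their summed level, over all 18, was 45.5 and 57.7 in double-positive, 311 and 303 in beta and 71.3 and 86.3 in delta libraries, and 2 members were at 0 in both double-positive libraries. Aif1, a macrophage marker, was listed at 0 in both, against 1.8 and 1.56 in beta libraries. Csf1r, the receptor that macrophages need, was at 0.0445 and 0.209 against 1.41 and 1.89, and C1qc at 0 and 0.0441 against 3.55 and 4.41. Cd68 and C1qa made up most of what was left in double-positive libraries, at 13.2 and 10.9 and at 26.7 and 30.2, near or under their delta levels of 12.6 and 10.0 and 53.2 and 70.7. The part of macrophages in other genes lower in double-positive cells was not tested.

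Acinar transcripts moved with the pool. The summed level of 21 acinar markers was 2601 and 191 in the male and female double-positive libraries, 13809.7 and 512 in the beta and 878 and 654 in the delta libraries, so the male beta library stands apart. Of 19 tested, 6 were lower and 0 higher (median -2.31), with 1 lower without the block, 1 without beta replicate 1, 17 without beta replicate 2, 14 and 2 without double-positive replicate 1 or 2, 17 without either delta library and 18 with only the 4 libraries. Clps, colipase, was at 119.8 and 2.79 against 897 and 28.4 (-2.92, SE 0.93, adjusted p = 0.034), with an adjusted p of 0.219 without beta replicate 1, 0.133 without double-positive replicate 2 and 0.241 without the block. Bhlha15, an acinar transcription factor, was at 14 and 16 against 23.9 and 37.7 and kept its call in the alternatives run. Ductal markers went both ways, 3 higher and 3 lower of 11 tested (1 lower without double-positive replicate 1 and 5 without beta replicate 2). Tspan8, a tetraspanin, was at 133 and 108 against 15.2 and 10.9 (3.12, SE 0.12, adjusted p = 5.22e-05) and at 276 and 247 in delta libraries, and Krt7 was lower at -1.03. Endothelial markers (1 of 13 tested) and mesenchymal, stellate and glial markers (2 of 17) were near or under the filter, with summed levels of 5.34 and 7.36 and 3.37 and 3.3 in double-positive against 11.7 and 5.28 and 4.06 and 3.83 in beta libraries.

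Of the 3649 genes called higher, 1200 (32.9%) had both double-positive values above all 4 beta and delta values, and 767 of these are protein-coding. Mlxipl, Meg3 and Malat1, described above, are among them. The difference from delta cells was not tested.

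**Figure D5:**
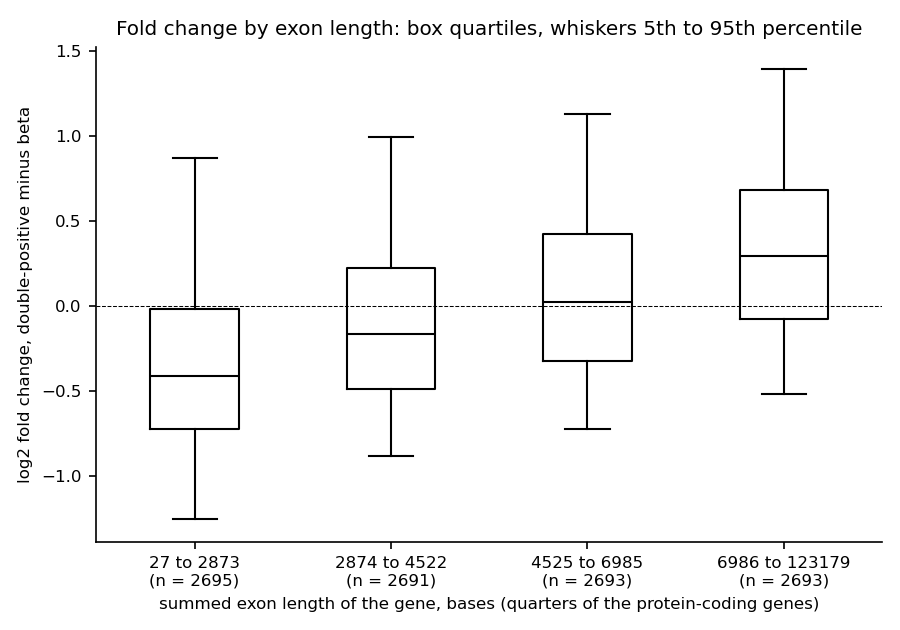
Log2 fold change (double-positive minus beta) of protein-coding genes in 4 classes of summed exon length, with boxes at the quartiles and whiskers at the 5th and 95th percentiles. The median moves from -0.41 in the shortest to 0.29 in the longest class.

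Fold changes also followed the length of the gene. Over 10772 protein-coding genes the Pearson correlation of log2 exon length and log2 fold change was 0.37, a description across genes that share these 4 libraries. In the shortest of 4 equal classes (up to 2873 bases of exon) 11.8% were higher and 51.1% lower, and in the longest (6986 bases or more) 44.6% were higher and 10.99% lower. The median exon length was 2432.5 bases for the tested oxidative phosphorylation genes, 3435 for Atf4 targets, 8060 for channel genes and 9359 for adhesion and guidance genes. When the trend with exon length was taken out of each library, an alternative chosen after seeing the data, 19 oxidative phosphorylation genes were lower, 21 Atf4 targets were lower, 13 adhesion genes were higher and 5 lower, and 12 delta identity genes were higher. The part of RNA quality or library preparation in the trend was not tested.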

How the data were processed

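RNA of 6 sorted islet libraries was measured, and the authors deposited 1 RPKM value per gene symbol and library. STAR 2.5, featureCounts and edgeR 3.14.0 were used with GRCm38.p4, per the submitters' processing notes. Their order and settings are not given in the sources used here. Per the labels' protocols, libraries came from a TruSeq RNA kit, and whether strand was counted is not given. Of 46959 symbols, 27 that look like dates were left out, and 44027 of the other 46932 matched 1 GENCODE M21 gene, which gave exon lengths, gene types and GRCm38 coordinates. RPKM are not counts, so no count test was run. Each library's denominator came from low RPKM, which step by 1 read, and 83.3% to 86.4% of values under 50 reads were whole (tolerance 0.01 reads).

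Groups follow the labels. Median-of-ratios scaling, a filter of 1 RPKM in 2 of the 4 libraries and log2(scaled RPKM + 1) were followed by limma 3.58.1 in R 4.3.3 with a trend, all 6 libraries in 1 fit and the pool as a block, with Benjamini-Hochberg adjusted p under 0.05 over 12433 genes. Per the series text, one set of islets, pooled by sex, gave all populations, and libraries were paired by that sex. Deviations of same-numbered libraries correlated at 0.50 (double-positive and beta), 0.43 and 0.24. The script was tested on simulated data. The genes named are the 15 higher and 15 lower of largest fold change among those called that did not overlap between groups and moved alike in both pools, leaving out predicted and small RNA genes, then the 4 markers and members of 26 gene lists. The genes compared, the lists and the tests were chosen with earlier results of these data known. List members named in the text were picked after their values were seen. Promoters are from RefSeq (GRCm38.p6), and motifs were searched in the 250 bases before the start site. Alternatives covered the block, the libraries in the fit, the scaling, the pseudocount, the filter and each library left out. Fitting only the 4 libraries without the block and removing the trend with exon length in each library were added after seeing the data.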

Additional observations from a re-analysis of the deposited data

How the results depend on the processing

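Counts of higher and lower genes (3649 and 3550) depended most on the scaling, with 5495 and 1289 for RPKM as deposited and 4964 and 1546 when hormone genes were left out of the summed RPKM. With a filter of 5 RPKM they were 2411 and 2372 of fewer genes tested. Leaving out 1 library gave 2299 to 3859 higher and 1393 to 3924 lower, the lowest of both without double-positive replicate 1. Without the pool as a block they were 3489 and 3284, and named genes and lists whose calls differed from the blocked fit are given beside those results, except that 1 in place of 2 was higher among Atf4 targets and 1 in place of 2 lower among normally silent genes. With only the 4 libraries they were 3666 and 3282 with the block and, chosen after seeing the data, 3164 and 2538 without it. With the exon length trend removed they were 3891 and 3179, of which 3131 and 2676 were also called in the same direction with the trend kept. The 30 genes named by size, Ucn3 and the other markers kept their direction and their call in the alternatives that tested them, and Acp5, Tgfbi and Tyrobp were not tested with the filter of 5 RPKM. Each group has 2 libraries, and the double-positive ones are the shallowest, so genes near the filter are the least certain. Prlr, not called at 0.15, turned to -0.30 with the exon length trend removed and was called there (adjusted p = 0.0378). The cause was not tested.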
